A study of Homo sapiens and Mus musculus with 12 samples.

Results

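AP-1 and immediate early transcription factor mRNAs were followed in polysome profiling libraries of 2 melanoma cell lines, A375 from human and Yumm1.7 from mouse. The 10 genes, chosen with earlier results of these data known, were matched by symbol: FOS, FOSB, FOSL1, FOSL2, JUN, JUNB, JUND, ATF3, EGR1 and IER2. All 10 were found among the 16782 genes listed for A375 and among the 12711 listed for Yumm1.7. A polysome profile spins cell lysate through a sucrose gradient, so that an mRNA sediments by the number of ribosomes it carries. Each line was profiled as drug-tolerant persister cells, which survive a drug without stable resistance, and as parental cells. The libraries are labelled S and P, and the meaning of each letter is not stated, so the letters are kept. The labels name no drug, dose or time, and give no genotype. Each of the 4 combinations of line and state gave 1 library of input RNA, 1 of the monosome fraction (the single-ribosome peak and the lighter fractions just before it) and 1 of the polysome fraction (the densest fractions). There is 1 library per group, so the spread between replicates, and with it the error of each difference, is not known. Each line is a single established cell line.

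AP-1 is a dimer of basic leucine zipper proteins that binds the DNA sequence TGACTCA. FOS family proteins (FOS, FOSB, FOSL1 and FOSL2) pair with JUN family proteins (JUN, JUNB and JUND), whereas JUN proteins can also pair with each other and with ATF family proteins such as ATF3. Immediate early genes are transcribed within minutes of a growth signal without new protein synthesis, and growth factor signalling through ERK kinases is a main input to FOS, FOSL1, EGR1 and IER2, while stress kinases are a main input to JUN and ATF3. In melanoma with mutant BRAF, ERK signalling is constantly on, and FOSL1 is known as one of its outputs.

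Promoter sequence of 3 of these genes is shown because JUN and ATF3 were the members with the largest positive differences in A375 and EGR1 was lower in both lines. The sequences are RefSeq's, on GRCh38.p14, written 5′ to 3′ on the strand of the gene. Capitals mark TGACATCA, an AP-1-like site, in JUN (minus strand, chr1:58784097-58784124) and in ATF3 (plus strand, chr1:212565157-212565333). In EGR1 (plus strand, chr5:138465229-138465478) capitals mark the CArG boxes, the motif bound by serum response factor.
JUN: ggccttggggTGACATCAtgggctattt
ATF3: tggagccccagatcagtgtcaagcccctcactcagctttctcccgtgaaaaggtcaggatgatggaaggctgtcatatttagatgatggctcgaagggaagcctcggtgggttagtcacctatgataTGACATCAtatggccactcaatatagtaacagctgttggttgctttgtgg
EGR1: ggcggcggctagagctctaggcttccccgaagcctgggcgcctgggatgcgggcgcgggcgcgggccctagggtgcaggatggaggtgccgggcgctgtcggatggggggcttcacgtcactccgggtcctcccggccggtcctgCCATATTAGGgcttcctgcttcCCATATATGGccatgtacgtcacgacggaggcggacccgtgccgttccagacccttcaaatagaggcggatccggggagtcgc

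Over the 250 bases before the RefSeq start, searched on both strands, TGACATCA was in JUN and ATF3 and in 2.37% of 35116 promoters. This motif was chosen after the sequences were read. The CArG box was in EGR1, as 2 separate matches, and in 1.16% of promoters. The cyclic AMP response element TGACGTCA was in JUND and in 1.65% of promoters. The AP-1 site TGACTCA (4.20% of promoters) and the EGR1 site GCGTGGGCG (0.720%) had no match in these windows of the members. None of the motifs overlapped another in the sequences shown. In GENCODE 29 the annotated JUN gene begins upstream of the stretch shown. A match describes the letters of the window and is not a measured binding site.

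Levels are given as TPM, read density per transcript length scaled so that a library sums to 1000000, which allows levels to be compared between genes. The read depth of the libraries cannot be recovered from TPM, so it is unknown and no counting error is given. Genes at 0 were more common in S. In Yumm1.7 they numbered 1581 in S input, 1080 in S monosomes and 965 in S polysomes, against 316, 336 and 276 in P. In A375 they numbered 773, 965 and 1129 in S, against 447, 885 and 853 in P. A listed 0 in S is thus not particular to the members. Differences are given as log2(TPM + 1) relative to the median gene of the comparison, over genes whose mean in the 6 libraries of the line reached 1 TPM (12638 in A375 and 10492 in Yumm1.7). The median gene itself differed between S and P by -0.20 (log2) in input, 0.04 in monosomes and -0.21 in polysomes of A375. In Yumm1.7 it differed by -0.94, -0.21 and -1.53. All 10 members passed this filter in A375 and 8 passed in Yumm1.7, where Fos (mean 0.321 TPM) and Fosb (mean 0.826 TPM) did not. Differences of at least 2-fold were counted. Where 3 values are given for a state, they are those of the input, monosome and polysome libraries in that order. In bulk RNA, fewer cells of a kind and less RNA per cell cannot be told apart.

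The labelled cell type was checked on melanocyte lineage markers. In A375, SOX10 ranged from 78.7 to 217 TPM in S and from 73.0 to 249 TPM in P, and 6 of the 8 markers were listed. DCT (249 TPM in S input and 25.2 TPM in P input) and PMEL (39.5 TPM in S input and 6.49 TPM in P input), genes of pigment synthesis and pigment granules, were at least 2-fold higher in S in all 3 fractions of A375. SOX10 and S100B stayed within 2-fold in every A375 fraction. The marker MITF went the other way (43.0 TPM in S input and 66.6 TPM in P input), past 2-fold lower in polysomes only (log2 -1.06). In Yumm1.7, 4 of the 8 markers were listed, with a summed level of 0.571 to 2.53 TPM in S and 5.09 to 7.21 TPM in P. Pmel, Mlana and S100b were listed at 0 in the S input library, and S100b also in the P input library. Smooth muscle markers of Yumm1.7 (6 of 6 listed) summed to 877 to 1738 TPM in S and 3.21 to 10.9 TPM in P. Myh11 and Des, defining genes of smooth muscle among them, were at or below 0.654 TPM in every Yumm1.7 library. Fibroblast markers (7 of 8 listed) summed to 385 to 823 TPM in S and 189 to 424 TPM in P. Pdpn made up most of the P sum (67.3 TPM in S input and 214 TPM in P input), while Col3a1 had 204 TPM in S input and 25.4 TPM in P input, Col1a2 had 74.1 TPM in S input and 12.4 TPM in P input, and 4 of the 5 tested were at least 2-fold higher in S input. Some of these markers thus differed between the S and P states of each line and others did not, and their part in the results below was not tested.

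In the GENCODE 29 annotation on GRCh38, JUNB and FOSB lie whole within genes on the other strand, HOOK2 and ERCC1, over 1820 and 7185 bases. FOSL2 and IER2 overlap antisense genes over 2225 and 1123 bases. The strand setting of the counting is not given in the sources used here, so reads from such pairs cannot be told apart in these 4 genes. FOSL2 also overlaps a gene on its own strand, annotated as sense intronic, over 296 bases. The other 6 members overlap no annotated gene there.

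FOSL1 was the leading family member in P of both lines and was far lower in S. FOSL1 (chr11:65892049-65900573 in GRCh38), which encodes the FOS-related protein FRA-1, had 25.2, 22.5 and 17.0 TPM in the A375 S input, monosome and polysome libraries, against 128, 97.8 and 165 TPM in the same fractions of P. All 3 S values lay below all 3 P values. The log2 difference from P relative to the median gene was -2.11 in input, -2.11 in monosomes and -3.00 in polysomes. In Yumm1.7, Fosl1 was listed at 0 in S input and had 2.87 TPM in S monosomes and 0.281 TPM in S polysomes, against 207, 91.7 and 216 TPM in the input, monosome and polysome libraries of P. The S to P ratio of TPM was 0.0312 in monosomes and 0.00130 in polysomes, and no ratio is given for input because of the listed 0. Its log2 difference in polysomes (-5.87) was the lowest of the 10492 genes tested.

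FOS and FOSL2 were higher in A375 S, and FOSB was lower. FOS (chr14:75278774-75282230), the founding immediate early partner of JUN, had 43.4, 14.3 and 60.4 TPM in the S input, monosome and polysome libraries, against 10.8, 6.77 and 16.6 TPM in P. Its log2 differences were 2.11 in input, 0.94 in monosomes and 2.01 in polysomes, so the monosome value stayed within 2-fold. The S monosome level lay below the P polysome level, so the ranges over fractions of S and P overlapped. FOSL2 (chr2:28392448-28417312), which encodes FRA-2, had 18.1, 6.28 and 28.5 TPM in S, against 2.32, 0.630 and 4.49 TPM in P, with log2 differences of 2.72, 2.12 and 2.63. Every S library was above every P library for FOSL2, the reverse of the order for FOSL1. FOSB (chr19:45467995-45475179), which encodes another FOS family protein, was at or below 0.292 TPM in every S library and between 1.40 and 2.24 TPM in P, near the lower end of what these tables list.

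In Yumm1.7, FOS itself was hardly present. Fos was listed at 0 in all 3 S libraries and had 0.351, 0.273 and 1.30 TPM in P input, monosomes and polysomes. Fosb had 0.144, 1.59 and 0.230 TPM in S and 0.787, 0.819 and 1.38 TPM in P, and its highest value was the S monosome library. Fosl2 was level across the libraries, with 6.93, 7.60 and 6.03 TPM in S and 5.45, 3.56 and 6.60 TPM in P. Relative to the median gene these are log2 differences of 1.23, 1.12 and 1.42, each past 2-fold higher in S, but as deposited they are 0.30, 0.91 and -0.11, so the direction in polysomes turns with the scaling.

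Among JUN family genes the 2 lines differed most in JUN. JUN (chr1:58780788-58784327), the AP-1 subunit known for activation by JNK kinases, had 121, 74.6 and 254 TPM in the A375 S input, monosome and polysome libraries, against 4.00, 1.38 and 7.40 TPM in P. The lowest S library was above the highest P library, and the S to P ratio of TPM was 30.3 in input, 54.0 in monosomes and 34.3 in polysomes. Its log2 difference in input (4.81) was at the percentile 99.9 of the 12638 genes tested. In Yumm1.7, Jun had 5.87, 11.0 and 9.09 TPM in S, against 22.0, 19.6 and 28.6 TPM in P, so every S library was below every P library. Relative to the median gene the Yumm1.7 differences were -0.81, -0.57 and -0.02, all within 2-fold, and as deposited they were -1.74, -0.78 and -1.55. With a pseudocount of 0.1 TPM the polysome value was 0.17. The difference between the lines has no test.

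JUNB and JUND, the other JUN family genes, changed less in A375. JUNB (chr19:12791496-12793315), an early-induced JUN protein that can restrain JUN activity, had 30.0, 7.59 and 48.9 TPM in A375 S and 30.5, 18.1 and 44.6 TPM in P. Its monosome difference was past 2-fold lower in S (-1.20), while its input difference was 0.18 relative to the median gene and -0.02 as deposited. JUND (chr19:18279760-18281622), the JUN protein that is usually present in resting cells, had 37.4, 15.2 and 18.7 TPM in S and 19.4, 15.3 and 15.3 TPM in P. The input difference of JUND was 1.11 relative to the median gene and 0.91 as deposited, on either side of the 2-fold line, and the other fractions were within 2-fold.

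In Yumm1.7, Junb had 12.3, 13.5 and 27.7 TPM in the S input, monosome and polysome libraries. In P it had 47.7 TPM in input and 69.4 TPM in polysomes but was listed at 0 in monosomes. Of 4099 genes with at least 20 TPM in both other P fractions of Yumm1.7, 2 were listed at 0 in the P monosome library, and Junb was 1 of them. The listed 0 may be a failed estimate, so results that rest on it are not read here. Jund had 42.6, 76.0 and 30.0 TPM in S, against 45.6, 17.1 and 36.1 TPM in P. Relative to the median gene Jund was higher in S in all fractions (0.84, 2.30 and 1.27), but as deposited the input and polysome differences were -0.10 and -0.26, and the monosome difference alone kept its direction (2.09).

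ATF3, a stress-induced transcription factor of the basic leucine zipper class, was the other member with a very large difference in A375. ATF3 (chr1:212565334-212620777) had 128, 71.1 and 160 TPM in S input, monosomes and polysomes, against 7.76, 3.88 and 10.7 TPM in P, with no overlap between S and P. The TPM ratio of S to P was 16.5, 18.3 and 15.0, and the log2 difference in input was 4.08. In Yumm1.7, Atf3 had 7.14, 15.0 and 5.76 TPM in S and 7.09, 6.92 and 11.8 TPM in P. The Yumm1.7 values overlapped, and the difference was past 2-fold in monosomes only (1.22), with 0.94 in input and 0.61 in polysomes, where it is -0.92 as deposited.

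EGR1, a zinc finger transcription factor and classic read-out of ERK activity, was lower in S of both lines. EGR1 (chr5:138465490-138469315) had 1.44, 1.30 and 1.62 TPM in A375 S input, monosomes and polysomes, against 13.8, 10.2 and 14.1 TPM in P. The log2 differences were -2.41, -2.32 and -2.31, and the S and P values did not overlap. In Yumm1.7, Egr1 had 0.155 and 0.401 TPM in S input and monosomes and was listed at 0 in S polysomes, against 5.16, 6.85 and 5.86 TPM in P. Its log2 differences were -1.48 in input and -2.28 in monosomes, and both understate the ratio at such low levels. The polysome value of -1.25 rests on the listed 0. Unlike FOS in A375, which was higher in S, EGR1 was thus lower in A375 S by each of the 3 fractions.

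IER2, a nuclear immediate early protein, was lower in S of both lines before centring and within 2-fold of the median gene after it. IER2 (chr19:13150415-13154908) had 12.8, 6.25 and 19.2 TPM in A375 S and 21.9, 12.8 and 33.2 TPM in P, with log2 differences of -0.53, -0.97 and -0.56. In Yumm1.7, Ier2 had 23.1, 25.7 and 17.3 TPM in S and 61.5, 50.6 and 63.4 TPM in P, with differences of -0.44, -0.74 and -0.28. The Yumm1.7 ranges did not overlap, and as deposited the input and polysome differences were past 2-fold lower (-1.37 and -1.82).

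**Figure D1:**
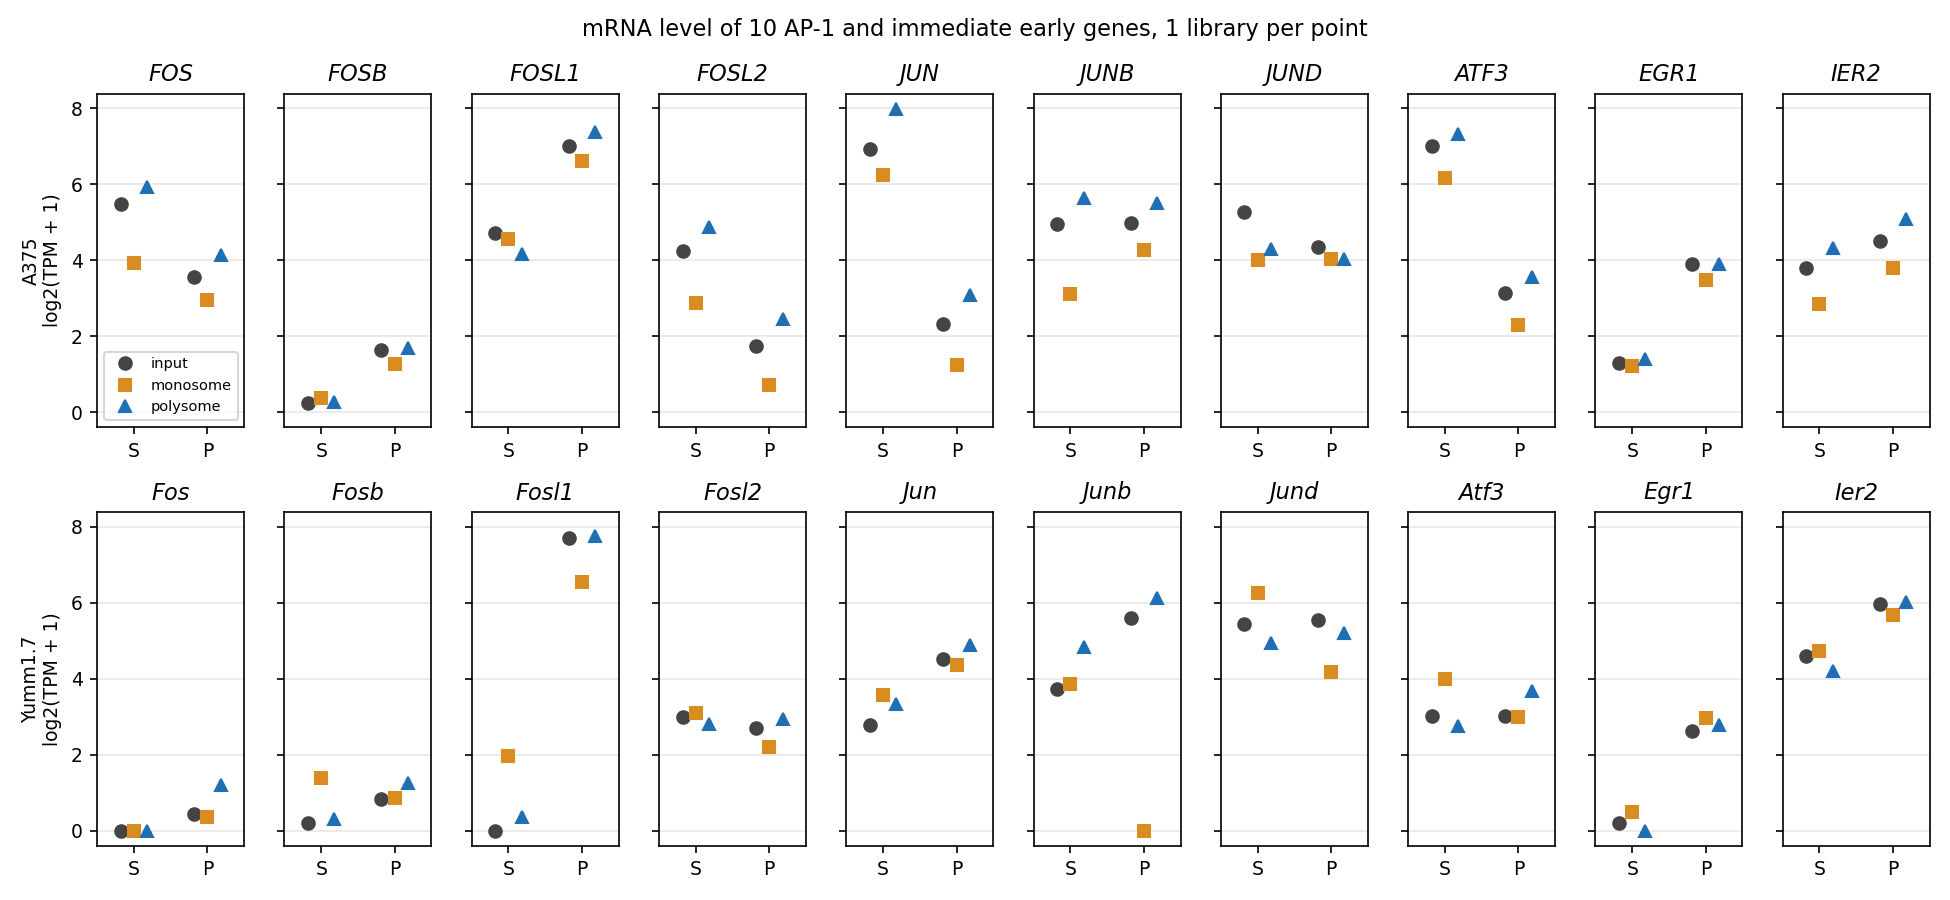
Level of each gene as log2(TPM + 1) on the vertical axis in S and P libraries of A375 (top row) and Yumm1.7 (bottom row), with 1 point per library (circle input, square monosome, triangle polysome). FOSL1 lies lower in S of both lines, JUN and ATF3 lie far higher in S of A375 (JUN input 121 against 4.00 TPM), and Junb is at 0 in the Yumm1.7 P monosome library.

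In A375 input RNA the members stood in a different order in S and P. The A375 S input order ran from ATF3 and JUN down through FOS, JUND, JUNB, FOSL1, FOSL2 and IER2 to EGR1 and FOSB. In A375 P input it ran from FOSL1 through JUNB, IER2, JUND, EGR1, FOS, ATF3, JUN and FOSL2 to FOSB. Whether neighbours in either order differ beyond error is not known without replicates. As a percentile of all listed A375 genes, JUN stood at 94.1 in S input and 39.9 in P input, and FOSL1 at 76.1 in S input and 93.5 in P input.

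Counted at 2-fold relative to the median gene, 5 of the 10 members were higher and 3 lower in A375 S input, where 15.6% of all genes tested were higher and 16.2% lower. The members and the gene lists below were chosen with earlier results of these data known. Counts set against the share of all genes are therefore a description and not a test. The median difference of the members was 0.64, against 0 for all genes by construction. In the monosome libraries 3 members were higher and 3 lower (backgrounds 11.7% and 13.2%), and in polysomes 4 were higher and 3 lower (16.5% and 15.6%). FOSB was among the lower members in input (-1.20) and polysomes (-1.21). It was at or below 0.292 TPM in every A375 S library and passed the filter (mean 1.07 TPM) through P. FOSL2, JUN and ATF3 were past 2-fold higher in all 3 A375 fractions, as were 6.24% of genes, and FOSL1 and EGR1 were lower in all 3, as were 6.33%.

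In Yumm1.7 input 1 of the 8 members tested was at least 2-fold higher in S and 2 were lower, with backgrounds of 23.1% and 22.3%, so the counts are near the background. The median difference of the members was -0.62. In monosomes the counts were 4 higher and 2 lower (25.4% and 24% of genes), Junb with its listed 0 being among the 4, and in polysomes 2 higher and 2 lower (24.1% and 22.5%). The genes past 2-fold in all 3 fractions were Fosl2, higher relative to the median gene (14.1% of genes), and Fosl1 and Egr1, lower (11.7% of genes). In both lines together, FOSL1 and EGR1 were lower in all fractions, as were 2.7% of the 8522 genes tested in both, and FOSL2 was higher, as were 2.05%, although the Yumm1.7 part of the FOSL2 result turns with the scaling in polysomes. The Yumm1.7 part of the other results uses a listed 0, in S input for Fosl1 and in S polysomes for Egr1. Egr1 was at or below 0.401 TPM in every Yumm1.7 S library and passed the filter on mean level through P.

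**Figure D2:**
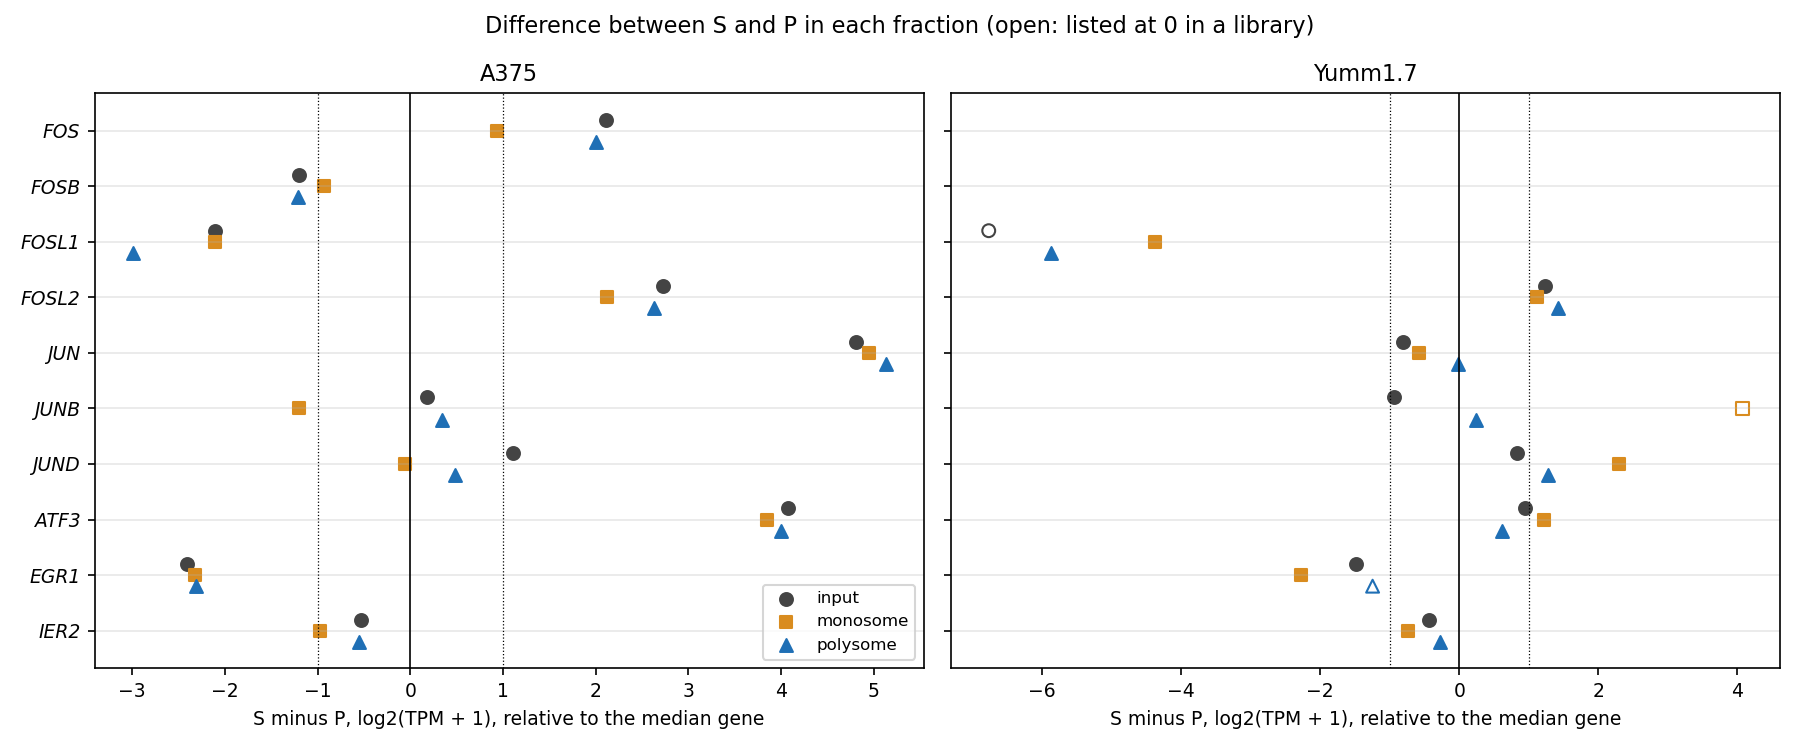
Difference between S and P of each gene (rows) as log2(TPM + 1) relative to the median gene on the horizontal axis, for A375 (left) and Yumm1.7 (right), with 1 symbol per fraction, dotted lines at 2-fold and open symbols where a library is listed at 0. JUN lies near 5 in every A375 fraction and between -0.81 and -0.02 in Yumm1.7 (0.17 in polysomes with a pseudocount of 0.1 TPM), while FOSL1 lies left of the 2-fold line in both lines. As deposited, Fosl2 and Jund of Yumm1.7 polysomes lie at -0.11 and -0.26.

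The make-up of the FOS and JUN family pool does not depend on the scale of a library, because each share is taken within the library. Summed over its 7 genes, the pool was 275 TPM in A375 S input and 197 TPM in A375 P input. FOS family mRNAs made up 31.5% of it in S input, 30.8% in S monosomes and 24.8% in S polysomes, against 72.7%, 75.4% and 73.6% in P. The ratio of summed FOS family to summed JUN family TPM was thus 0.461 in S input and 2.67 in P input. FOSL1 alone took 9.13% of the pool in S input and 65.0% in P input. JUN took 44.0% in S input and 2.03% in P input, and it was the largest single component of each A375 S library.

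In Yumm1.7 the pool was 67.8 TPM in S input and 329 TPM in P input. FOS family mRNAs made up 10.4%, 10.7% and 8.93% of it in S input, monosomes and polysomes, against 65.0%, 72.4% and 62.7% in P, where the monosome share rests on Junb at 0. Fosl1 took 63.0% in P input. Jund was the largest component in S, with 62.7% in input, 67.5% in monosomes and 40.9% in polysomes, against 13.9%, 12.8% and 10.05% in P. The FOS family share was lower in S in each of the 6 pairs of libraries, with JUN leading the S pool in A375 and Jund in Yumm1.7. With FOSL1 left out, the FOS family share in input was 24.7% in A375 S and 22.1% in A375 P, and 10.4% in Yumm1.7 S and 5.40% in Yumm1.7 P, so in input it was not lower in S. It was still lower in S in A375 monosomes (17.7% in S and 20.2% in P), A375 polysomes (21.7% and 25.8% in S and P) and Yumm1.7 monosomes (8.39% in S and 11.3% in P, with Junb at 0).

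**Figure D3:**
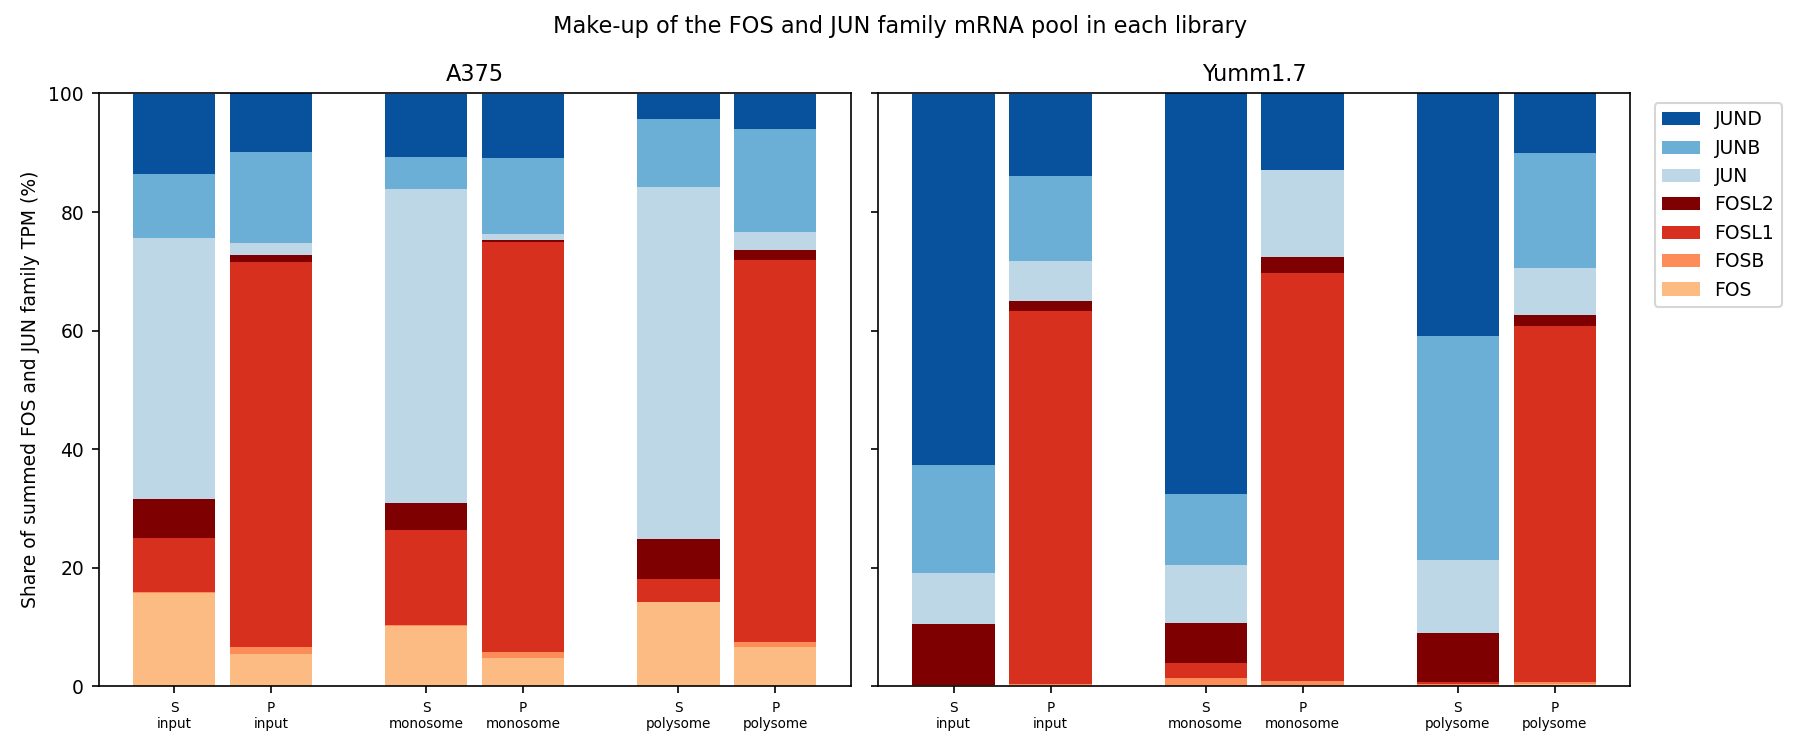
Stacked bars of the share (percent, vertical axis) of each FOS family (red shades) and JUN family (blue shades) gene in their summed TPM, 1 bar per library, S left of P for each fraction. FOSL1 fills 60.1% to 69.1% of each P bar, JUN is the largest part of A375 S and JUND the largest part of Yumm1.7 S.

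Which of these mRNAs sediment with many ribosomes was read from the polysome library set against the monosome library of the same state. In A375 S, JUNB had 48.9 TPM in polysomes and 7.59 TPM in monosomes, a TPM ratio of 6.45, the highest of the members. FOSL2 had a ratio of 4.54, FOS 4.22 and JUN 3.40, and these 4 genes were at least 2-fold more polysomal than the median gene (log2 1.87, 1.35, 1.34 and 1.09), where 20.8% of genes were. FOSL1 was lowest relative to the median gene, with 17.0 TPM in polysomes and 22.5 TPM in monosomes, a ratio of 0.753 and a relative value of -1.06 (16.7% of genes were at least 2-fold lower). FOSB, at under 0.3 TPM in both fractions, had a lower TPM ratio (0.718) but a relative value of -0.76. JUND (-0.38) and EGR1 (-0.48) lay below the median gene, ATF3 (0.50) and IER2 (0.81) above it.

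In A375 P, none of the members was at least 2-fold more polysomal than the median gene (background 19.1%) and JUND was lower (-1.06, background 20.8%). JUN (0.77) and FOSL2 (0.70) were the highest there, and their TPM ratios, 5.36 for JUN and 7.13 for FOSL2, were above those in S. With a pseudocount of 0.1 TPM both were past 2-fold in P (1.08 for JUN and 1.40 for FOSL2), where JUN had 0.96 and FOSL2 1.36 in S, and with no filter on low values both were also past 2-fold in P (1.16 and 1.09). As deposited, 6 members were at least 2-fold higher in P polysomes than in P monosomes, because the median gene was itself higher by 1.05. The same members lay on each side of the median gene in both states, with FOS, FOSL2, JUN, JUNB, ATF3 and IER2 above the median gene and FOSB, FOSL1, JUND and EGR1 below it in each. Their order differed, JUNB being highest in S and JUN in P, FOSL1 lowest in S and JUND in P. In P, FOS (0.13), JUNB (0.20), ATF3 (0.21) and IER2 (0.26) lay close to the median gene. With no filter on low values FOSL1 lay above it in P (0.08). The log2 polysome-to-monosome ratio differed between S and P by 1.58 for JUNB and 1.11 for FOS, past 2-fold higher in S, as for 13.1% of genes. None was past 2-fold lower (background 7.88%), and FOSL1 had -0.84. As deposited, FOS was no longer past 2-fold (0.82) and FOSL1 was past 2-fold lower (-1.13). These differences use the same 4 libraries as the ratios within states.

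In Yumm1.7 S, Junb was again the most polysomal member, with 27.7 TPM in polysomes and 13.5 TPM in monosomes (1.45 relative to the median gene, background 13.2%). Fosl1 was lower (-1.13, background 10.9%) on levels of 0.281 TPM in polysomes and 2.87 TPM in monosomes. Jund (-0.85) and Atf3 (-0.78) lay below the median gene and Fosl2 (0.17), Jun (0.22), Ier2 (-0.08) and Egr1 (-0.02, listed at 0 in polysomes) near it. In Yumm1.7 P, Egr1 was past 2-fold lower (-1.11, background 13.4%) and, other than Junb with its listed 0 (background 14% higher), the remaining 6 members tested lay between -0.59 and 0.31. For the polysome-to-monosome ratio, S against P, Fosl1 was lower by the 2-fold measure (-1.40, background 12.6%). Egr1 was higher (1.13, background 17.3%) with a library at 0, and its sign turns to -0.29 as deposited. The other member counted as lower, Junb, rests on its listed 0.

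**Figure D4:**
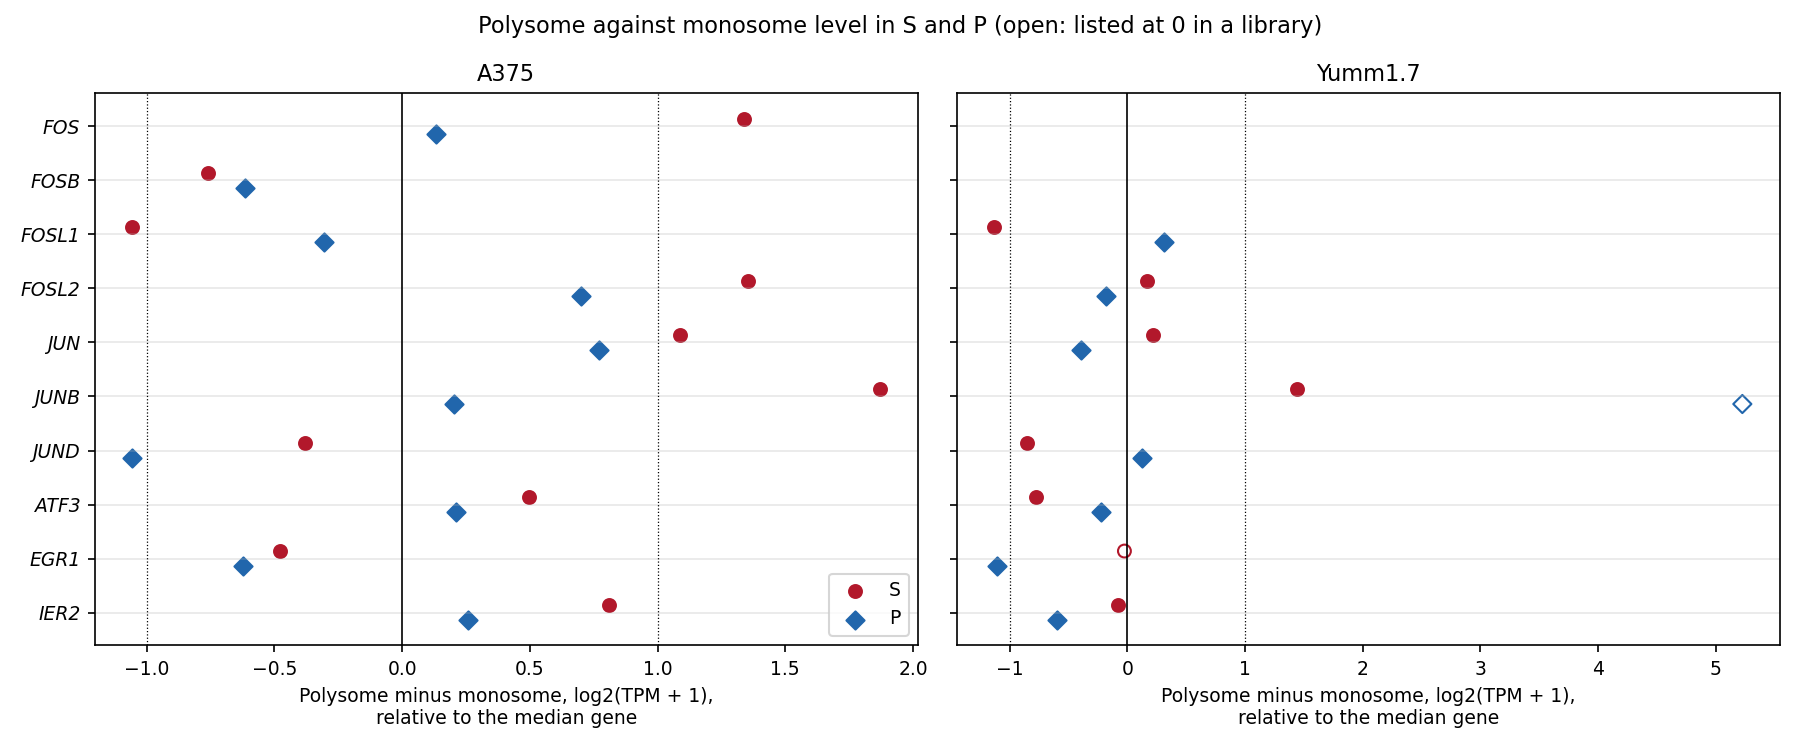
Polysome minus monosome level of each gene (rows) as log2(TPM + 1) relative to the median gene, in S (circles) and P (diamonds) of A375 (left) and Yumm1.7 (right), with dotted lines at 2-fold and open symbols where a library is listed at 0. In A375, FOS, FOSL2, JUN and JUNB lie right of the 2-fold line in S and inside it in P. With a pseudocount of 0.1 TPM, JUN (0.96 in S and 1.08 in P) and FOSL2 (1.36 in S and 1.40 in P) do not show this contrast.

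Other immediate early genes went both ways. Of 29 tested in A375 input, 8 were at least 2-fold higher in S and 9 lower (median -0.57), against 15.6% and 16.2% of all genes. Of 27 in Yumm1.7, 4 were higher and 8 lower (-0.56), against 23.1% and 22.3%. The growth regulator MYC was lowest in A375, with 1.80 TPM in S and 37.5 TPM in P, followed by EGR3, a paralogue of EGR1, with 3.71 TPM in S and 22.8 TPM in P. At the other end were the stress gene GADD45B (89.5 TPM in S and 12.5 TPM in P) and the kinase gene PLK2 (183 TPM in S and 44.6 TPM in P). In Yumm1.7, Myc (0.508 TPM in S and 96.9 TPM in P) and the EGF receptor inhibitor Errfi1 (0.573 TPM in S and 23.1 TPM in P) were lowest. Gadd45b was highest, with 35.2 TPM in S and 2.34 TPM in P, followed by Ier5l (33.8 TPM in S and 16.6 TPM in P).

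In input, other basic leucine zipper partners were counted at shares near those of all genes. Of 17 tested in each line, 3 were higher and 2 lower in A375 S input (median 0.26, with 15.6% and 16.2% of all genes). In Yumm1.7, 3 were higher and 5 lower (-0.69, with 23.1% and 22.3% of all genes). MAF was highest in both, with 144 TPM in S and 9.74 TPM in P of A375 and 20.6 TPM in S and 0.303 TPM in P of Yumm1.7. The small MAF gene MAFF was low in both, with 7.73 TPM in S and 42.6 TPM in P of A375 and 0.747 TPM in S and 19.9 TPM in P of Yumm1.7. NFIL3 in A375 (53.8 TPM in S and 10.1 TPM in P) and the stress factor gene Ddit3 in Yumm1.7 (701 TPM in S and 212 TPM in P) were also higher in S. BATF3 in A375 (8.02 TPM in S and 20.6 TPM in P) and the antioxidant regulator gene Nfe2l2 in Yumm1.7 (59.7 TPM in P and a log2 difference of -3.56) were lower. In A375 monosomes 3 of the 17 were higher and 5 lower, against 11.7% and 13.2% of all genes. In Yumm1.7 monosomes 3 were higher and 7 lower, against 25.4% and 24%. Polysome counts were 3 and 3 in A375 (16.5% and 15.6%) and 3 and 5 in Yumm1.7 (24.1% and 22.5%).

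Genes upstream of AP-1, mostly kinases of the MAP kinase cascades with serum response factor and its partners, differed little in A375. Of 18 tested and reported here, 1 was at least 2-fold higher in S input and none lower (median 0.11), against 15.6% and 16.2% of all genes. It was the serum response factor coactivator MRTFA, with 15.8 TPM in S and 4.80 TPM in P. In Yumm1.7 input, 6 of the 20 tested and reported here were higher in S and none lower (median 0.24), against 23.1% and 22.3% of all genes. The ternary complex factor Elk1 (10.2 TPM in S and 4.77 TPM in P) and the JNK-activating kinase gene Map2k7 (26.6 TPM in S and 14.5 TPM in P) were the highest among those averaging 5 TPM or more. Mrtfb, with a mean of 1.30 TPM, had a larger log2 difference (2.22). In Yumm1.7 monosomes 4 of the 20 were higher and 2 lower (median 0.43), against 25.4% and 24% of all genes. In Yumm1.7 polysomes 4 were higher and 5 lower (median -0.36), against 24.1% and 22.5%.

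Genes known as AP-1 targets were mixed in A375, where 3 of 13 tested were higher and 5 lower in S input (median -0.21), against 15.6% and 16.2% of all genes. The cytokine gene LIF had 2.29 TPM in S and 54.6 TPM in P, and SPP1, which encodes osteopontin, had 30.9 TPM in S and 143 TPM in P. The adhesion receptor gene CD44 had 847 TPM in S and 227 TPM in P, and the growth factor gene HBEGF 19.3 TPM in S and 8.18 TPM in P. In Yumm1.7, 11 of 18 were lower and 1 higher in S input (median -1.91), with backgrounds of 22.3% and 23.1%. The matrix metalloproteinase gene Mmp3 had 0.774 TPM in S and 216 TPM in P, and the cyclin gene Ccnd1 2.47 TPM in S and 189 TPM in P.

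Genes with the most similar pattern were found over the 12 libraries, as Pearson r of log2(TPM + 1) after subtracting the mean of each line, among 6102 genes averaging 5 TPM or more in both lines. The 12 points share the state, line and fraction, so r is a description. Levels were not taken relative to the median gene here. The difference of the median gene between S and P (-0.94 in input and -1.53 in polysomes of Yumm1.7) therefore enters each r. FOSL1 was closest to AUNIP (r 0.990), FBXO5 (0.989) and HMGA1 (0.986). The r of FOSL1 uses a listed 0 in Yumm1.7 S input. Its Yumm1.7 level was at or below 2.87 TPM in S, so it reached the 5 TPM mean through P. JUN was closest to TXNIP (0.966), MATN2 (0.960) and ID2 (0.953), and ATF3 to YPEL5 (0.989), SOX2 (0.957) and ENDOD1 (0.956). FOSL2 was closest to CITED2 (0.967), and IER2 to DNAAF2 (0.986). JUND was closest to MOB2 (0.903). The match of JUNB is not read because it uses the listed 0 in Yumm1.7 P monosomes, which may be a failed estimate. FOS, FOSB and EGR1 were below the level needed.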

How the data were processed

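Per the labels' protocols, libraries were prepared from RNA captured on poly-T beads, with random hexamer priming and PCR. The authors deposited TPM values, 1 table per line. Per the submitters' processing notes, the builds were GRCh38 (hg38) and GRCm38 (mm10). For the aligner, quantifier, annotation and strand setting, nothing is stated in these sources. The smallest mean over 6 libraries is 0.1 TPM. The listed genes sum to 66.6% to 90.1% of 1000000 in A375 and 84.5% to 94.4% in Yumm1.7.

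From these, log2(TPM + 1) differences relative to the median gene were computed in Python 3.11.15 (pandas 2.3.3) over genes averaging 1 TPM or more, in 12 comparisons, and counted at 2-fold. With 1 library per group there is no test and no p-value. Alternatives were the values as deposited, a pseudocount of 0.1 TPM and no filter on low values. The calculation was run on simulated data, with set changes larger than 2-fold and no noise in genes of at least 20 TPM. That run checks the arithmetic only and does not cover values near 0. The members and lists were chosen with earlier results of these data known. From each of the 4 pathway lists up to 2 highest and 2 lowest genes past 2-fold in input, averaging 5 TPM or more, are named. The list of genes upstream of AP-1 held 1 more gene, which is not reported here. The marker lists of keratinocytes, leukocytes and endothelial cells had at most 1 member tested in either line. Promoters were matched by symbol in RefSeq's table for 9 of the 10 members (not FOSL1), and ATF3 has 2 starts there, of which the one with the motif is shown.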

Additional observations from a re-analysis of the deposited data

Results flagged for a closer look

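JUN was far higher in S of A375 and not higher in S of Yumm1.7 by the measure used. Relative to the median gene, S minus P was 4.81, 4.95 and 5.13 (log2) in A375 input, monosomes and polysomes, and -0.81, -0.57 and -0.021 in Yumm1.7. The difference between the lines was not tested, since each group has 1 library, and all 3 Yumm1.7 values lie within 2-fold. The Yumm1.7 polysome value turns to 0.17 with a pseudocount of 0.1 TPM, so its direction depends on the pseudocount. As deposited it is -1.55.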

How the results depend on the processing

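FOSL1 and EGR1 (lower in S of both lines) and JUN, ATF3 and FOSL2 (higher in A375 S) kept their direction in input, monosomes and polysomes under all alternatives run. Differences as deposited moved the most counts. Members lower in polysomes than in monosomes numbered 0 instead of 1 in A375 S, and in A375 P the count was 6 higher and 0 lower instead of 0 and 1. For the A375 polysome-to-monosome ratio it was 1 higher and 1 lower instead of 2 and 0. In Yumm1.7, S against P, it was 0 higher and 5 lower in input instead of 1 and 2, 0 and 5 in polysomes instead of 2 and 2, and 0 and 5 for the ratio instead of 1 and 2. Polysome against monosome gave 0 higher and 3 lower in Yumm1.7 S instead of 1 and 1, and 3 and 0 in P instead of 1 and 1. As deposited, polysome differences turned to -0.11 for Fosl2 and -0.26 for Jund, and the ratio of Egr1 turned to -0.29 (-0.40 with a pseudocount of 0.1 TPM). Junb in Yumm1.7 polysomes was -1.30 instead of 0.24, and the Yumm1.7 ratio of Fosl2 -1.03 instead of 0.39. For the A375 ratio, FOS (0.82) lost its call and FOSL1 (-1.13) gained one. The pseudocount of 0.1 TPM gave 5 members lower in A375 monosomes instead of 3, 2 lower on the A375 S gradient instead of 1, 2 higher on the P gradient instead of 0, 3 higher in Yumm1.7 input instead of 1, 2 lower on the Yumm1.7 S gradient instead of 1 and 0 higher for the Yumm1.7 ratio instead of 1. With no filter, the A375 S gradient had 0 lower, the A375 P gradient 2 higher and 0 lower, Yumm1.7 input 0 higher and 4 lower, Yumm1.7 polysomes 1 higher, the Yumm1.7 P gradient 0 lower and the Yumm1.7 ratio 0 higher. Within a comparison, centring shifts every gene by the same amount. Dropping the filter changes the median that is subtracted, so it too shifts all genes already tested equally. The cause of the other changes was not tested. Leaving out members listed at 0, chosen after seeing the data, gave 1 lower in Yumm1.7 input, 1 lower in polysomes, 0 higher on the P gradient, and 0 higher and 1 lower for the ratio.

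Leaving out FOSL1, also chosen after seeing the data, gave FOS family shares of 24.7%, 17.7% and 21.7% in A375 S input, monosomes and polysomes, against 22.1%, 20.2% and 25.8% in P. In Yumm1.7 they were 10.4%, 8.39% and 8.58% in S, against 5.40%, 11.3% and 6.47% in P. No paired analysis was possible because each group has 1 library. The unknown depth limits all values near 0.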
